A study of Mus musculus with 5 samples.

Results

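*Sox5*, *Sox6* and *Sox9* are transcription factor genes best known from cartilage, and their transcripts were followed here in the other cell types of the developing mouse penis and limb. The 3 genes were found by their symbols among the 32285 genes of the count tables, as *Sox5* (ENSMUSG00000041540), *Sox6* (ENSMUSG00000051910) and *Sox9* (ENSMUSG00000000567). The rule that finds them uses only the symbols. In GRCm38 the genes lie at chr6:143828425-144781977 on the minus strand, at chr7:115470872-116038796 on the minus strand and at chr11:112782224-112787760 on the plus strand. Counts are per gene from a 3' kit and cannot separate start sites or isoforms. Whether introns were counted is not given. The RefSeq promoter table lists 1 start site for *Sox5* and 6 for *Sox6*.

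SOX proteins bind DNA through an HMG box. SOX9 belongs to the SOXE group with SOX8 and SOX10, and it carries a domain that activates transcription. SOX5 and SOX6 belong to the SOXD group with SOX13, carry a coiled coil through which they pair with each other, and lack an activating domain of their own. In cartilage SOX9 and the SOX5 and SOX6 pair act on the same enhancers of matrix genes such as *Col2a1* and *Acan*. Outside cartilage each has other known settings: SOX6 represses slow fibre genes in skeletal muscle, SOX5 and SOX6 act in the neural crest lineage that gives rise to Schwann cells and melanocytes, and SOX9 marks progenitors of tendon attachments and of several epithelia, hair follicles among them.

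The study dissociated whole tissue for single-cell RNA sequencing. All 5 libraries came from C57BL/6N mice, as the labels give the strain (the study's methods name C57BL/6J), and the labels name no mutation, transgene or treatment. There were 3 libraries of penis at postnatal day 6, and 1 of forelimb and 1 of hindlimb at embryonic day 15 by the labels, an age that the study's text does not give the same way throughout. Per the study's methods the penes came from male pups of 2 litters with the prepuce removed, and the limbs from male embryos, but the labels tie no library to an animal. P-values of penis against limb therefore measure the spread between these libraries, which may be partly technical. Comparisons of cell types within libraries were fitted with library as a block. Their p-values measure the spread left over in these 5 libraries, which may also be partly technical. The forelimb and hindlimb were taken as 1 limb arm of 2 libraries, and organ, age and library preparation cannot be told apart in any difference between penis and limb.

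The libraries held 8411 to 11397 barcodes in the penis and 25937 and 28266 in the limbs. After the study's limits on genes, mitochondrial share and complexity, 5708 to 7085 penis cells and 20514 and 22057 limb cells were kept. The median cell held 8791.5 to 9909 UMIs in the penis and 5358 and 6057 in the limbs. Any pair of libraries that included a penis library shared 9 to 42 barcodes, and the limb libraries shared 124. Cells were gated by the summed share of fixed marker genes, with none of the 3 *Sox* genes among the markers, and a cell past more than 1 gate other than mesenchyme was left out. Cartilage-gated cells were abundant in the limbs, at 1284 and 1589, and numbered 19, 14 and 13 in the penis libraries. A separate class, called low cartilage here and kept apart from mesenchyme, held cells with a weaker cartilage-marker signal and no gate other than mesenchyme. In the penis it was led by *Cnmd*, *Col9a3*, *Col9a1* and *Grem1*. In the limbs *Gdf5*, *Foxc1*, *Sox5*, *Sox6* and *Barx2* led it, a joint and interzone gene first, with no cartilage marker among its 10 leading genes.

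Most penis transcripts of the 3 genes lay outside both cartilage classes. Of the UMIs of each penis library in kept cells, 84.8%, 85.6% and 86.1% of those of *Sox5*, 80.04%, 80.73% and 79.97% of those of *Sox6*, and 88.4%, 86.8% and 87.7% of those of *Sox9* lay in cells of neither cartilage class. These include cells of no gate or of several gates, which held 3.78 to 9.41% of the penis UMIs of each gene. Among them 10, 7 and 8 penis cells passed both the cartilage and the tendon gate, and 10, 10 and 6 both the cartilage and the osteoblast gate. In the forelimb and hindlimb these shares were 50.2% and 37.7% for *Sox5*, 50.1% and 34.2% for *Sox6*, and 48.5% and 39.4% for *Sox9*. Mesenchyme-gated cells, the most numerous, held 64.9 to 67.3% of the penis UMIs of *Sox9* and 50.7 to 52.5% of those of *Sox5*, but 21.8 to 24.4% of those of *Sox6*. Epithelium-gated cells held another 20.6 to 22.3% of the penis UMIs of *Sox6*. Beside these shares, mesenchyme held 66.97 to 68.07% of all penis UMIs, close to its share of *Sox9*, while the low cartilage class held 2.48 to 2.80% and the cartilage gate 0.232 to 0.400% of all penis UMIs. In the limbs mesenchyme held 57.1% of all UMIs, the low cartilage class 3.02% and 4.25%, and the cartilage gate 4.73% and 6.91%. Cells of other gates with some cartilage markers count as outside here. A wider rule left cells with at least 3 cartilage markers, or a cartilage share of at least 10 per 10000 UMIs, out of those gates. By it the penis UMIs of *Sox6* fell from 660, 605 and 663 to 102, 63 and 110 in the tendon gate. In mesenchyme they fell from 979, 1078 and 902 to 544, 629 and 569. Values below without cells with 3 cartilage markers follow this wider rule. The number of markers with a UMI depends on a cell's depth, so the rule is not matched for depth between penis and limb.

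Limb cartilage sets the scale for the other types. There *Sox5* stood at 1231 and 1367 CPM (the gene's UMIs in the summed cells of a gate, scaled to 1000000 UMIs) in the forelimb and hindlimb, *Sox6* at 1014 and 1436 CPM, and *Sox9* at 708 and 856 CPM. At an equal depth of 2000 UMIs per cell, 47.0% and 56.9% of cartilage-gated limb cells carried a UMI of all 3 genes. Against the mesenchyme-gated cells of the same libraries the log2 difference was +3.97 ± 0.16 (SE) for *Sox5*, +4.46 ± 0.17 for *Sox6* and +3.75 ± 0.13 for *Sox9*, and each passed the limits used throughout, an adjusted p of 0.01 and a log2 difference of 1 in edgeR's quasi-likelihood test. In that comparison 15.7% of the 17386 genes tested passed. The few cartilage-gated penis cells gave 801, 701 and 903 CPM of *Sox5*, 862, 967 and 1326 CPM of *Sox6* and 547, 619 and 622 CPM of *Sox9*, and were too few to test.

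Over all gates but red blood, which was left out of the tests, with at least 20 cells in every library of an arm, 36 of 51 differences between a type and the mesenchyme of its own arm passed for the 3 genes, and 8 of 24 differences of a type between penis and limb. Over all genes 2.48 to 41.5% passed in the former comparisons and 10.3 to 25.1% in the latter, depending on the type. The former include the limb cartilage gate and the low cartilage class of both arms, where all 3 genes passed. Those cells are chosen by cartilage transcripts and kept out of mesenchyme, so these passes are no result about types outside cartilage. Of the 21 interactions, which test whether the difference from mesenchyme was the same in both arms, 9 passed. Over all genes the share that passed an interaction was 9.62% in Schwann, 9.38% in epithelium, 8.73% in endothelium, 13.2% in immune, 4.15% in tendon, 8.06% in low cartilage and 2.24% in mural cells.

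**Figure D1:**
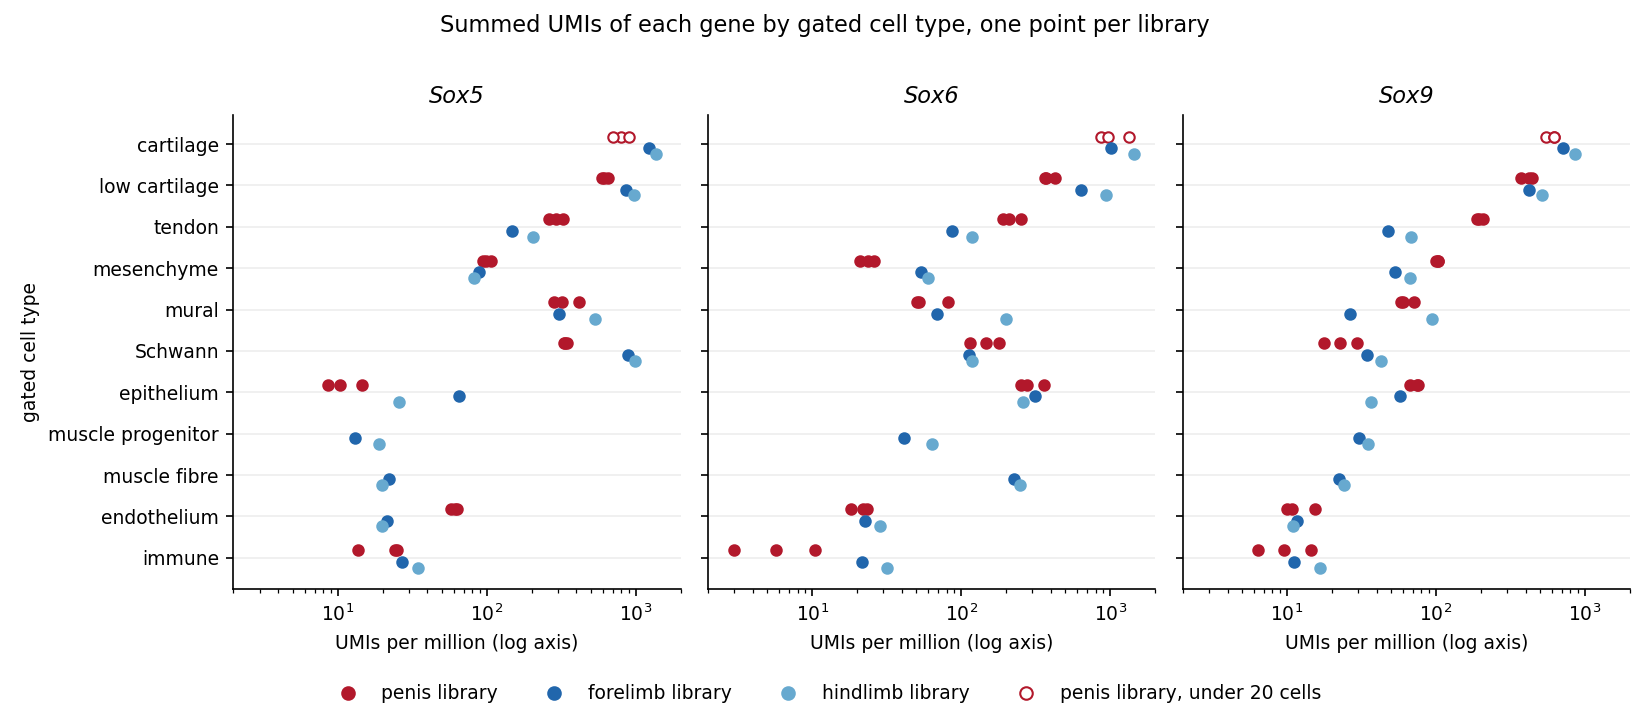
Levels of *Sox5*, *Sox6* and *Sox9* in CPM of a gate's summed UMIs (log axis) by marker-gated cell type, with 1 point per library, filled or, for penis libraries with under 20 cells of a type, open. Among types outside the cartilage classes with at least 20 cells per library, *Sox5* was highest in limb Schwann-gated cells (883 and 994), *Sox6* in epithelium-gated cells (253 to 358 in the penis, 259 and 313 in the limbs), and *Sox9* in tendon-gated penis cells (190 to 206). Without cells with 3 cartilage markers, *Sox9* stood at 73.7, 94.8 and 94.5 in penis tendon and at 90.0, 88.9 and 93.8 in penis mesenchyme.

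Schwann-gated cells, the glia of peripheral nerve, carried the most *Sox5* outside the cartilage classes in the limbs, and less of it in the penis, where mural cells held as much. *Sox5* stood at 345, 331 and 337 CPM in the 3 penis libraries and at 883 and 994 CPM in the forelimb and hindlimb. The groups did not overlap, and the limb values lay beside those of the limb low cartilage class, 863 and 973 CPM. The difference of penis against limb was -1.42 ± 0.08 on the log2 scale (edgeR adjusted p = 2.2e-11), in a comparison where 16.6% of the 11184 genes tested passed. *Sox6* pointed the other way, with 180, 148 and 114 CPM in the penis and 113 and 118 CPM in the limbs, which overlap, and its difference of +0.42 ± 0.15 did not pass (edgeR adjusted p = 0.033). *Sox9* was low, at 29.6, 22.7 and 17.6 CPM in the penis and 34.4 and 42.9 CPM in the limbs, and its difference of -0.65 ± 0.22 did not pass either (edgeR adjusted p = 0.024).

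Set against mesenchyme, the Schwann-gated cells had values of *Sox5* and *Sox6* above it in both arms, by amounts that differed between them. In the limbs *Sox5* was higher by 3.41 ± 0.16 on the log2 scale, and *Sox6* by 0.98 ± 0.21, just under the limit of 1 (without the hindlimb it was +1.08 and passed); 13.7% of all genes tested passed there. In the penis *Sox6* was higher by 2.70 ± 0.16 and *Sox5* by 1.78 ± 0.13, while *Sox9* was lower, at -2.09 ± 0.17; 25.5% of all genes passed. The differences between arms in these contrasts, tested as interactions, were -1.63 ± 0.20 for *Sox5*, +1.71 ± 0.25 for *Sox6* and -1.41 ± 0.30 for *Sox9*, with edgeR adjusted p-values of 1.9e-08, 1.2e-06 and 0.00038. Mesenchyme differed between the arms in *Sox6*, and any such difference is part of each interaction.

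The cells of the Schwann gate also carried transcripts of other types. Mesenchyme markers averaged 92.8 to 99.1 per 10000 UMIs in the penis Schwann gate and 29.0 to 34.5 in the limb one, and cartilage markers 1.55 to 1.82 and 3.61 to 4.83. UMIs of at least 3 cartilage markers were seen in 4.97 to 7.89% of the penis and 20.4% and 29.5% of the limb Schwann-gated cells. With the cells left out by the wider rule given above, an alternative added after the data were seen, the penis and limb difference of *Sox5* was -1.56 and passed. The *Sox6* difference of limb Schwann against mesenchyme became +1.61 and passed.

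Of the lists of related genes, the SOXD and SOXE paralogs had 2 of 3 members higher in penis Schwann cells than in mesenchyme (median log2 difference of the list 1.96, of all genes -0.16) and 3 of 3 in limb ones, where 25.5% and 13.7% of all genes passed. *Sox10*, the SOXE gene that neural crest glia depend on, averaged 267 CPM in the penis and 213 CPM in the limb Schwann gate. *Sox8* and *Sox13* averaged 32.9 and 29.0 CPM in the penis. Between penis and limb, *Sox8* alone of these 3 paralogs passed in Schwann cells, by +1.03 ± 0.23. The list of 7 Schwann lineage regulators, which includes *Sox10* and the gate marker *Foxd3*, had 6 members higher and none lower in the penis and 6 higher and 1 lower in the limbs. Between arms, where 16.6% of all genes passed, 2 of its 7 members did, both higher in the penis: *Egr2*, a regulator of myelination (78.9 against 12.3 CPM, +2.73 ± 0.23), and *Pou3f1*, which acts just before it (719 against 207 CPM, +1.84 ± 0.13).

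Epithelium-gated cells had the opposite pattern, with much *Sox6* and little *Sox5*. *Sox6* stood at 275, 253 and 358 CPM in the penis and at 313 and 259 CPM in the limbs, which overlapped. The penis and limb difference was +0.09 ± 0.15 (edgeR adjusted p = 0.70), where 12.1% of the 12383 genes tested passed. Against mesenchyme *Sox6* was higher by 3.85 ± 0.15 in the penis and by 2.48 ± 0.18 in the limbs, on the log2 scale, where 32.3% and 21.7% of all genes passed. *Sox5* stood at 14.6, 10.3 and 8.67 CPM in the penis and at 65.0 and 25.7 CPM in the forelimb and hindlimb. The groups did not overlap, although the forelimb was far above the hindlimb, and the difference was -1.92 ± 0.34 (edgeR adjusted p = 0.00078). Without the forelimb library it was -1.14 with an adjusted p of 0.024 in edgeR and did not pass. *Sox9* stood at 74.9, 76.3 and 67 CPM in the penis and at 57.2 and 36.9 CPM in the limbs, without overlap, and its difference of +0.70 ± 0.19 did not pass (edgeR adjusted p = 0.014); without the forelimb it was +1.02 and passed. *Sox9* in epithelium was close to its level in mesenchyme in both arms, at -0.27 ± 0.12 and -0.23 ± 0.20, and neither passed. In limb epithelium *Sox5* differed from mesenchyme by -0.82 ± 0.23, and by -1.52 without the forelimb, which passed; in the penis it was lower by 2.92 ± 0.20.

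*Sox6* varied inside the epithelium with the keratins a cell carried. In the penis, cells with at least 10 UMIs of the basal keratin genes *Krt5*, *Krt14* or *Krt15* and fewer of the suprabasal genes *Krt1* and *Krt10* held 285, 232 and 344 CPM of *Sox6*, and those with at least 10 UMIs of *Krt1* or *Krt10*, whatever the others, held 199, 146 and 181 CPM. In the limbs the same classes held 380 and 413 CPM, and 182 and 73.4 CPM. The first, basal-keratin class was thus higher than the second, suprabasal-keratin class in each of the 5 libraries. Depth differed too: the median cell of the first class held 10144 to 10339 UMIs in the penis and 5106 and 5323.5 in the limbs, and that of the second 14843 to 19680.5 and 4513.5 and 3953. Penis cells with under 10 UMIs of these 5 keratins held 377, 717 and 942 CPM of *Sox6*, against 170 and 172 CPM in the limb cells of that kind. Those keratin-low penis cells numbered 88, 104 and 61, were shallow, with a median of 1657 to 1708 UMIs, and their values lie outside the limb values in each penis library. The split was made after the gate's values were seen and was not tested.

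**Figure D2:**
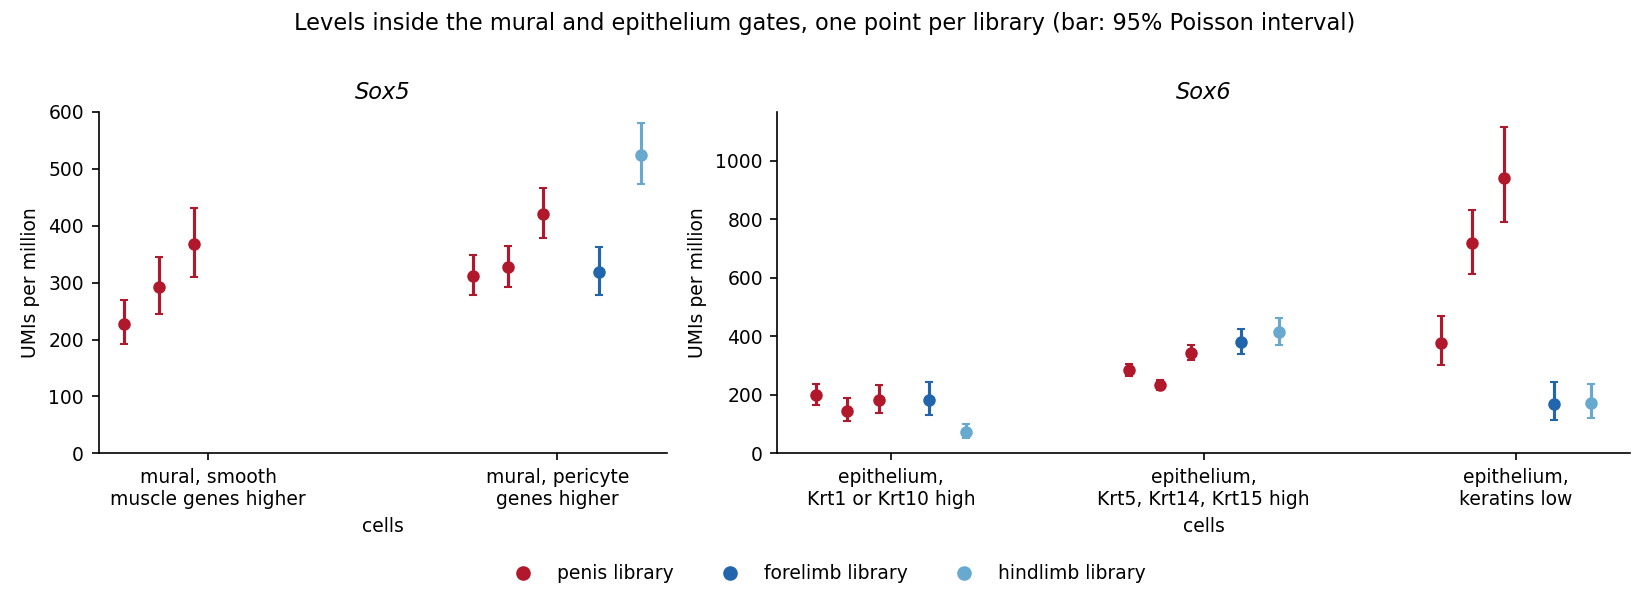
Levels in CPM within parts of a gate, by library, with bars for the 95% Poisson interval of the count: *Sox5* in mural-gated cells led by smooth muscle or pericyte genes, and *Sox6* in epithelium-gated cells by keratin class. *Sox5* was 312 to 420 in pericyte-led and 228 to 367 in smooth-muscle-led penis mural cells (the limb libraries held 6 and 7 of the latter, not drawn), and *Sox6* was higher in basal-keratin than in suprabasal-keratin cells of every library.

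The list of 10 genes of epithelia in which SOX9 is known to act had 7 members tested against mesenchyme, of which 6 were higher and 1 lower in penis epithelium and 4 were higher and 2 lower in limb epithelium, where 32.3% and 21.7% of all genes passed. *Krt7*, a simple epithelial keratin, averaged 144 CPM in the penis and 857 CPM in the limbs, and *Krt13*, a keratin of moist stratified linings, 116 and 704 CPM. *Tfap2b* averaged 297 and 175 CPM. *Shh*, the hedgehog ligand of urethral and follicle epithelium, averaged 4.87 and 1.77 CPM, and *Foxa1* 9.28 CPM in the penis and no UMI in the limb epithelium. Between penis and limb, 1 of the 6 members tested was higher and 2 were lower (12.1% of all genes passed). Among the other *Sox* genes, 4 of 10 tested were higher and 2 lower than in mesenchyme in the penis epithelium, a share above the 32.3% of all genes. In the limb epithelium 2 were higher and 0 lower, a share near the 21.7% of all genes. *Sox15*, a gene of stratified epithelium, averaged 13.3 CPM in the penis and 1.77 CPM in the limbs.

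Muscle was gated in the limbs only, since no penis cell passed the fibre gate and the progenitor gate held 3, 1 and 3 penis cells. *Sox6* differed sharply between the stages. It stood at 41.5 and 63.4 CPM in *Pax7* and *Myf5* type progenitors, against 227 and 246 CPM in the cells of the fibre gate, called fibre cells here. The markers of that gate include *Myog* and *Mymk*, genes of differentiating and fusing myoblasts, beside sarcomere genes, and *Myog* was its leading gene. Of these cells 867 in the forelimb and 592 in the hindlimb lay under 50 per 10000 UMIs of *Myh3*, *Myh8* and *Acta1*. Myoblasts and fibres were not told apart by the gate. At 2000 UMIs per cell 32.4% and 34.3% of the fibre cells had a UMI of *Sox6*. The fibre cells were above mesenchyme by 2.45 ± 0.16 on the log2 scale (edgeR adjusted p = 4.6e-16; 32.1% of genes passed). The progenitors did not differ detectably, at +0.07 ± 0.17 (edgeR adjusted p = 0.72; 26.5% of genes passed). *Sox5* was low in both, at 13.0 and 19.1 CPM in progenitors and 22.04 and 19.95 CPM in fibre cells, and lower than mesenchyme by 2.21 ± 0.19 and 1.63 ± 0.18. *Sox9* stood at 30.4 and 34.8 CPM in progenitors and at 22.5 and 24.04 CPM in fibre cells, and differed from mesenchyme by -0.67 ± 0.14 and -0.97 ± 0.16, which lie within the limit of 1; without the forelimb the latter was -1.08 and passed.

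Fibre cells with much *Myh3*, *Myh8* and *Acta1*, which numbered 59 and 35, held 300 and 309 CPM of *Sox6*, and the others 222 and 244 CPM. The former were far shallower, with a median of 1011 and 1168 UMIs beside 8204 and 9806.5. At 2000 UMIs per cell a UMI of *Sox6* was seen in 40.7% and 26.3% of them and in 32.2% and 34.5% of the others, so the 2 limbs went opposite ways. Cells under 2000 UMIs are not in these shares, so those of the former rest on only some of the 59 and 35 cells. The 11 and 10 fibre cells with a UMI of *Myh7*, the slow myosin heavy chain gene, held 287 and 354 CPM of *Sox6* beside 225 and 243 CPM in the rest, and are too few to compare. Of the 8 slow muscle fibre genes, 7 were tested in fibre cells against mesenchyme and 5 were higher, with none lower and a median log2 difference of 4.70, against -0.21 over all genes, of which 32.1% passed. Troponin genes led them, with 563 CPM of *Tnni1*, 1242 CPM of *Tnnt1* and 347 CPM of *Tnnc1*, while *Myh7* averaged 4.83 CPM. *Sox8*, a SOXE paralog, was also higher in fibre cells, at 68.5 CPM beside 4.98 CPM in limb mesenchyme, and of the 10 other *Sox* genes tested 1 was higher and 1 lower, a share under that of all genes.

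Mural-gated cells, the pericytes and smooth muscle of vessels, were another site of *Sox5*. It stood at 284, 318 and 415 CPM in the penis and at 307 and 536 CPM in the limbs, which overlap, and the difference was -0.35 ± 0.18 (edgeR adjusted p = 0.16; 10.3% of genes passed). Against mesenchyme it was higher by 1.70 ± 0.13 in the penis and by 2.24 ± 0.17 in the limbs, where 10.5% and 5.23% of genes passed. Penis cells led by pericyte genes held 312, 328 and 420 CPM of *Sox5* and those led by smooth muscle genes 228, 292 and 367 CPM, so the pericyte-led cells were higher in each library, while both ranges overlapped. *Sox6* stood at 52.2, 50.5 and 81.1 CPM in the penis and at 69.2 and 201 CPM in the forelimb and hindlimb. Its difference of -1.20 ± 0.29 passed (edgeR adjusted p = 0.0056) but rested on the hindlimb library of 89 mural cells: without it the difference was -0.26, and without the first or the second penis library it was -1.08 with an adjusted p above 0.01. UMIs of at least 3 cartilage markers were seen in 8.08% of the forelimb, 20.2% of the hindlimb and 4.22 to 5.56% of the penis mural cells. Without the cells that the wider rule leaves out, *Sox6* stood at 19.2 and 73.6 CPM in the limb mural cells and its difference was +0.07. Without them *Sox5* stood at 281, 324 and 404 CPM in the penis and at 251 and 249 CPM in the limbs, which no longer overlap, and its difference turned to +0.36 (edgeR adjusted p = 0.074), which did not pass. *Sox9* stood at 60.4, 58.3 and 71.8 CPM in the penis and at 26.6 and 94.6 CPM in the limbs, with a difference of +0.01 ± 0.30 (edgeR adjusted p = 0.98); without the forelimb it was -0.59, and without the hindlimb +1.18, which passed; without cells with 3 cartilage markers it was +0.84 and did not pass (edgeR adjusted p = 0.032).

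Tendon-gated penis cells, chosen by *Scx*, *Tnmd*, *Mkx*, *Thbs4*, *Kera* and *Fmod*, had higher values of all 3 genes than the limb ones, past both limits for *Sox9* and *Sox6*. *Sox9* stood at 195, 206 and 190 CPM in the penis and at 47.8 and 68.3 CPM in the limbs. *Sox6* stood at 209, 191 and 251 CPM and at 86.1 and 118 CPM. *Sox5* stood at 324, 264 and 291 CPM and at 149 and 205 CPM. No gene's groups overlapped. The differences of penis against limb were +1.80 ± 0.13 for *Sox9*, +1.12 ± 0.14 for *Sox6* and +0.76 ± 0.12 for *Sox5*, of which the first and second passed both limits (edgeR adjusted p = 3.5e-07 and 2.9e-05) in a comparison where 17.0% of the 13250 genes tested passed. Against mesenchyme *Sox6* was higher by 3.27 ± 0.15 in the penis, and by 0.86 ± 0.17 in the limbs, which lay under the limit of 1. *Sox5* was higher by 1.61 ± 0.13 and 1.06 ± 0.15. *Sox9* was higher by 1.01 ± 0.11 in the penis, with a difference of -0.03 ± 0.14 in the limbs. In these comparisons 7.95% and 2.48% of genes passed. Single libraries decided 3 of these calls: the *Sox6* difference of penis against limb was +0.91 without the forelimb, that of *Sox9* in penis tendon against mesenchyme +0.97 without the second penis library, and that of *Sox5* in limb tendon against mesenchyme +0.79 without the hindlimb, all under the limit of 1.

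Cartilage transcripts moved with these tendon values. At least 3 cartilage markers had a UMI in 42.0%, 44.1% and 42.9% of the penis tendon-gated cells and in 19.8% and 30.8% of the limb ones. Cartilage markers averaged 7.48 to 7.81 per 10000 UMIs in the former and 5.01 to 6.23 in the latter. Neither the shares of cells nor the wider rule is matched for depth. The median tendon-gated cell held 9556 to 11067.5 UMIs in the penis and 5417 and 6097 in the limbs. The rule kept 153, 153 and 144 of 276, 279 and 261 penis cells, and 724 of 960 forelimb and 455 of 697 hindlimb cells. Without the cells that the wider rule leaves out, the penis tendon gate held 73.7, 94.8 and 94.5 CPM of *Sox9*. It held 63.2, 37.8 and 80.6 CPM of *Sox6* and 118, 94.2 and 141 CPM of *Sox5*. The limb tendon gate then held 36.2 and 43.1 CPM of *Sox9*, 56.5 and 50.2 CPM of *Sox6* and 135 and 157 CPM of *Sox5*. The *Sox9* difference was +1.23 and still passed, whereas those of *Sox6* (+0.23, edgeR adjusted p = 0.41) and *Sox5* (-0.23, edgeR adjusted p = 0.19) did not. Against mesenchyme in the penis, *Sox6* stayed higher, by 2.08, but *Sox9* (+0.07) and *Sox5* (+0.57) did not pass. This leaves out cells by transcripts that SOX9 itself is known to drive, so it removes cells by a measure related to the outcome.

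Cells of the tendon gate that also met the marker limits of the low cartilage class stayed in the tendon gate and are part of its values. They numbered 63, 69 and 69 in the penis libraries and 106 and 120 in the limbs. In the penis 93.7%, 95.7% and 95.7% of them had a UMI of *Sox5*, 84.1%, 87.0% and 88.4% of *Sox6*, and 92.1%, 89.9% and 84.1% of *Sox9*, without thinning. In the limbs 58.5% and 59.2% had a UMI of *Sox5*, 44.3% and 50.8% of *Sox6* and 32.1% and 50.8% of *Sox9*. These shares are not matched for depth, and such cells may be of a mixed type or doublets, which were not told apart.

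The list of 15 cartilage genes bound or driven by SOX9 was also counted in the tendon gate. Of the 15, 12 are cartilage gate markers, so their levels in the 2 cartilage classes follow from how those cells were chosen. In tendon-gated cells 11 of 15 were higher than in mesenchyme in the penis, median 2.17, and 6 in the limbs, median 0.66, where 7.95% and 2.48% of all genes passed. Between penis and limb tendon cells the list was split, with 6 higher and 4 lower, where 17.0% of all genes passed: *Cnmd*, an inhibitor of vessel growth in cartilage and tendon, averaged 137 against 12.3 CPM and *Col9a3* 214 against 40.7 CPM, whereas *Col2a1* averaged 45.4 against 199 CPM. Elsewhere 5 members were higher and 1 lower in limb Schwann cells, with a median of 0.57, where 13.7% of all genes passed. In penis Schwann cells 3 were higher and 4 lower (25.5% of all genes passed), in penis epithelium 0 and 7 (32.3%), and in muscle fibre cells 0 and 3 (32.1%), a share of the list under that of all genes.

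**Figure D3:**
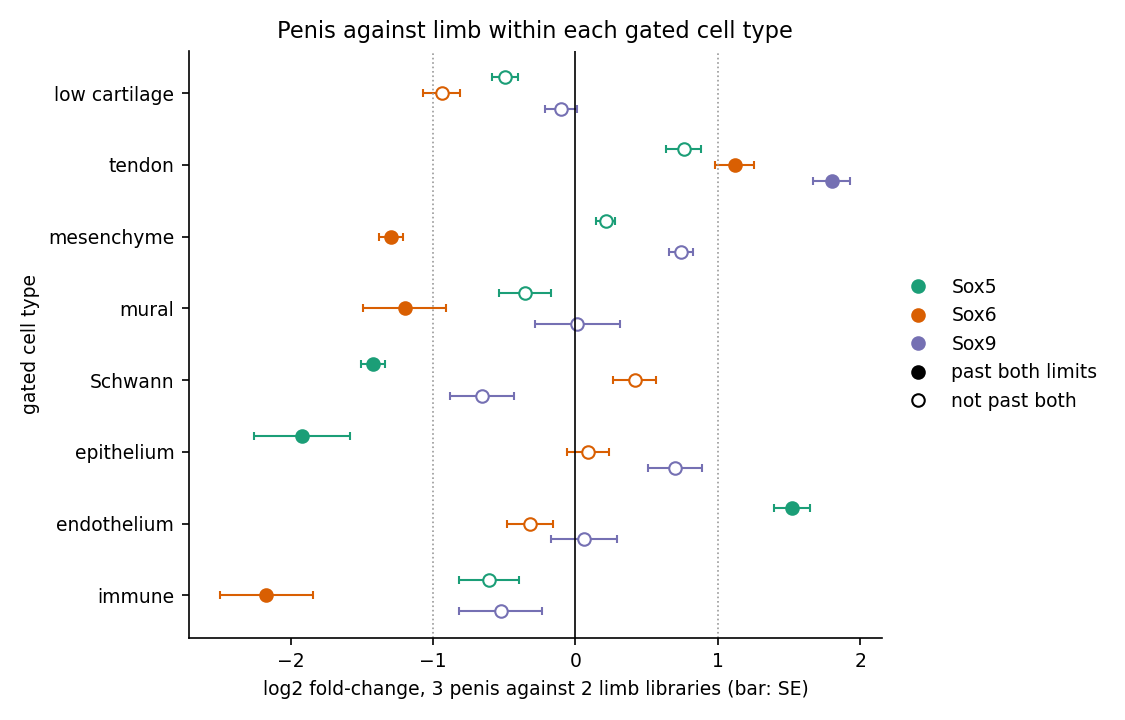
Log2 difference of penis against limb for each gene in 8 gated types, with bars of 1 standard error from edgeR, filled where both limits (adjusted p of 0.01, dotted lines at a log2 difference of 1) are passed. *Sox5* lies at -1.42 in Schwann, -1.92 in epithelium and +1.52 in endothelium, *Sox6* at -1.29 in mesenchyme and +1.12 in tendon, and *Sox9* at +1.80 in tendon.

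Mesenchyme-gated cells, fibroblasts and their progenitors, held most penis UMIs of *Sox9* at a level well under that of cartilage. *Sox9* stood at 103, 101 and 104 CPM in the penis and at 53.6 and 67.1 CPM in the limbs, and *Sox6* the other way round, at 21.0, 23.6 and 26.1 CPM and at 53.6 and 60.004 CPM. Neither overlapped between groups. The log2 difference of *Sox6* was -1.29 ± 0.08 and passed (edgeR adjusted p = 1.6e-06), and that of *Sox9* was +0.74 ± 0.08, with an edgeR adjusted p of 5.3e-05 but under the limit of 1; 25.1% of the 20270 genes tested passed. *Sox5* stood at 95.1, 99.3 and 108 CPM and at 88.9 and 82.0 CPM, with a difference of +0.21 ± 0.07 (edgeR adjusted p = 0.016). Of the SOXD and SOXE paralogs, *Sox8* and *Sox13* were also higher in penis mesenchyme, at 20.2 against 4.98 CPM and 7.4998 against 2.37 CPM.

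Much of the *Sox9* of penis mesenchyme lay in cells with a few cartilage transcripts. Penis mesenchyme cells with no UMI of a cartilage marker held 53.7 to 64.3 CPM of *Sox9*, those with 1 such marker 103 to 108, those with 2 142 to 153, and those with 3 or more 218 to 219. In the forelimb the same classes held 41.1, 50.3, 60.8 and 95.9 CPM and in the hindlimb 52.3, 56.8, 71.5 and 110 CPM. *Sox6* rose from 8.88 to 10.3 CPM in penis cells without a marker to 94.2 to 113 CPM in those with 3 or more, and from 33.3 CPM in both limbs to 131 and 118 CPM. *Sox5* rose from 61.0 to 69.7 CPM to 222 to 246 CPM in the penis, and from 66.2 and 53.7 CPM to 171 and 128 CPM in the limbs. In each library each gene was highest in the class with the most markers. The depth of the cells rose along with the markers, from a median of 9296 to 12717 UMIs in the first penis library and from 4723 to 8596 in the forelimb, and its part in the pattern was not tested. Among cells without a marker UMI the mean of *Sox9* was 58.8 CPM in the penis and 46.7 CPM in the limbs. The median such cell held 8297 to 9296 UMIs in the penis and 4723 and 5304 in the limbs, so this class is not alike between arms. Many of the markers are genes that SOX9 is known to drive, so the classes are not independent of the outcome.

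**Figure D4:**
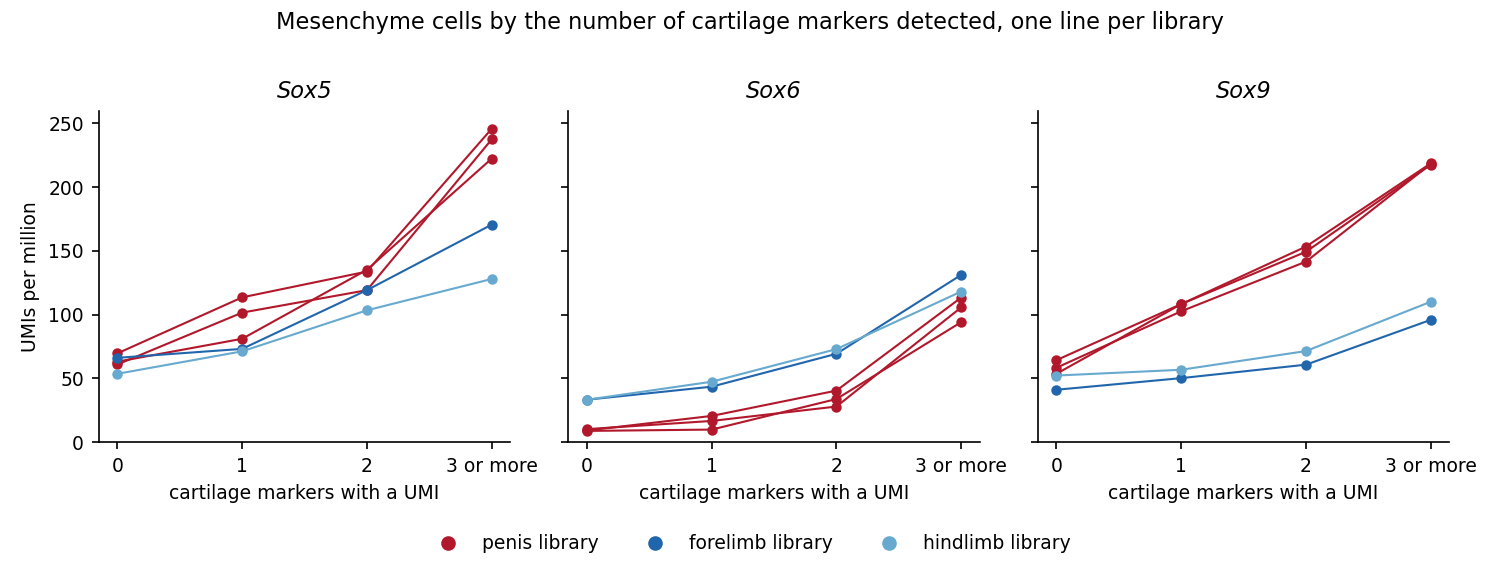
Levels of *Sox5*, *Sox6* and *Sox9* in CPM in mesenchyme-gated cells by the number of cartilage markers with a UMI in the cell (0, 1, 2, 3 or more), with 1 line per library. The penis lines of *Sox9* run from 53.7 to 64.3 without a marker to 218 to 219 with 3 or more, and the limb lines from 41.1 and 52.3 to 95.9 and 110.

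Mesenchyme cells with a UMI of *Sox9*, 1301 to 1614 per penis library and 2479 and 2988 in the limbs, were compared with the cells without one as a description. Ranked by the smallest log2 ratio over the libraries of an arm, the leading 10 genes in the penis were *Myoc*, *Bmp5*, *Agt*, *Trf*, *Sox6*, *Col9a1*, *Pparg*, *Col9a3*, *Apoe* and *Sox5*. *Myoc*, a secreted olfactomedin protein, averaged 116 CPM in cells with *Sox9* and 18.1 CPM in those without. *Bmp5*, a bone morphogenetic protein, averaged 29.5 and 5.70 CPM. *Apoe*, a lipid carrier, was by far the most abundant, at 3762 and 1164 CPM. *Pparg*, the regulator of fat cell formation, averaged 65.6 and 18.4 CPM. Of the members, *Sox6* averaged 43.4 and 11.2 CPM and *Sox5* 172 and 55.8 CPM.

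In the limbs *Sox6* led that ranking, at 97.2 CPM with and 40.7 CPM without a *Sox9* UMI. After it came *Egfem1*, *Grm8*, *Mia*, *Schip1*, *Prdm16*, *Csmd3*, *Kcnd2*, *Hs6st3* and *Map3k5*. *Egfem1* averaged 64.9 and 23.2 CPM. *Mia*, a secreted protein of chondrocytes and the only cartilage marker among the 10, averaged 26.7 and 12.7 CPM. *Sox5* averaged 128 and 69.0 CPM, the 15th in rank. Apart from *Sox6* the 2 sets of 10 shared no gene. *Col2a1*, the main cartilage collagen gene, differed little between these cells, at 8.91 and 7.06 CPM in the penis and 49.5 and 41.1 CPM in the limbs. It is a cartilage gate marker, as are *Mia*, *Col9a1* and *Col9a3*, and the low cartilage class was kept out of mesenchyme. How large its difference can be is thus limited by the gate. Cells with a *Sox9* UMI are deeper on average, and depth was not matched in this description.

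Immune-gated cells were low in each of the 3 genes, though not the lowest in *Sox5*. Its mean was 11.2 CPM in penis epithelium beside 21.0 CPM in penis immune cells, with overlapping ranges. In the limbs it was 16.0 CPM in muscle progenitors, 21.0 CPM in muscle fibre cells and 20.6 CPM in endothelium, beside 30.7 CPM in immune cells. In red-blood-gated cells, *Sox5* stood at 50.1, 94.1 and 87.9 CPM in the penis and 123 and 109 CPM in the limbs, and *Sox9* at 126, 91.2 and 144 CPM and at 65.0 and 82.2 CPM, beside means of 101 and 85.4 CPM of *Sox5* and 102 and 60.4 CPM of *Sox9* in penis and limb mesenchyme. Their *Sox6* stood at 11.02, 74.3 and 21.2 CPM in the penis, of which only that of the second library lay above its own mesenchyme (21.0, 23.6 and 26.1 CPM), and at 70.6 and 109 CPM in the limbs. At least 3 cartilage markers were seen in 10.2 to 13.0% of these penis cells and in 9.78% and 26.8% of the limb ones. With the wider rule *Sox6* stood at 5.85, 14.01 and 20.4 CPM and at 36.5 and 54.4 CPM. *Sox5* then stood at 46.8, 64.2 and 64.6 CPM and at 83.9 and 54.8 CPM, and *Sox9* at 101, 61.9 and 122 CPM and at 47.8 and 52.2 CPM. What RNA from other cells adds to levels of this size was not tested. Immune-gated cells, led in the limbs by the mast cell genes *Cpa3* and *Cma1*, held 13.7, 24.1 and 25.1 CPM of *Sox5* in the penis and 26.8 and 34.5 CPM in the limbs. They held 3.00, 5.69 and 10.5 CPM of *Sox6* and then 21.6 and 31.7 CPM, and 6.43, 9.64 and 14.6 CPM of *Sox9* and then 11.2 and 16.6 CPM. At 2000 UMIs per cell, 2.84% of penis and 3.04% of limb immune cells had a UMI of *Sox5*, 0.81% and 2.05% of *Sox6*, and 1.21% and 1.86% of *Sox9*. The *Sox6* difference of -2.17 ± 0.32 between penis and limb immune cells passed (edgeR adjusted p = 0.00026; 20.6% of genes passed). Cartilage markers averaged 0.50 to 0.74 per 10000 UMIs in the penis and 1.95 to 2.19 in the limb immune cells, and without cells with 3 such markers the *Sox6* difference was -1.60 and did not pass. Against mesenchyme each gene was lower in penis immune cells, by 1.75 to 3.17 on the log2 scale, and *Sox5* and *Sox9* were lower in limb ones, where 40.6% and 41.5% of genes passed; without the forelimb the limb difference of *Sox5* was -0.97, under the limit of 1.

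Endothelium-gated cells were close to the immune cells in *Sox9* but not in *Sox5* of the penis. *Sox5* stood at 57.4, 63.0 and 61.7 CPM in the penis and at 21.5 and 19.7 CPM in the limbs, far apart beside the spread within each arm. The difference was +1.52 ± 0.13 (edgeR adjusted p = 2.1e-07; 14.3% of genes passed), and at 2000 UMIs 8.82 ± 0.59% (SD, n = 3) of penis and 2.94 ± 0.34% (SD, n = 2) of limb endothelial cells had a UMI. The limb share was close to that of limb immune cells. Without the cells with 3 cartilage markers the difference was +1.93. *Sox6* stood at 23.2, 21.8 and 18.2 CPM and at 22.7 and 28.7 CPM, and *Sox9* at 9.97, 15.5 and 10.7 CPM and at 11.8 and 11.01 CPM, which overlap and did not pass. The *Sox* genes known for endothelium were present: *Sox17* averaged 103 and 98.1 CPM, *Sox18* 139 and 141 CPM and *Sox7* 166 and 122 CPM in penis and limb. These 3 were the members of the list of other *Sox* genes that passed against mesenchyme in each arm, of 10 tested. Against mesenchyme, *Sox5* differed by -0.68 ± 0.14 in penis and -1.99 ± 0.21 in limb endothelium and *Sox9* by -3.03 ± 0.15 and -2.33 ± 0.21, where 31.1% and 23.7% of genes passed. The first of these lay within the limit of 1. *Sox6* differed by -0.10 ± 0.19 in penis endothelium, which did not pass, and by -1.08 ± 0.22 in limb endothelium, which passed.

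The low cartilage class lay between mesenchyme and cartilage. It held 612, 594 and 648 CPM of *Sox5* in the penis and 863 and 973 CPM in the limbs, 369, 366 and 425 CPM of *Sox6* and then 633 and 932 CPM, and 372, 439 and 423 CPM of *Sox9* and then 420 and 513 CPM. *Sox5* and *Sox6* did not overlap between the arms and *Sox9* did, and the differences of -0.49 ± 0.09, -0.94 ± 0.13 and -0.10 ± 0.11 lay within the limit of 1 (17.6% of genes passed); without the forelimb *Sox6* was -1.19 and passed. Against mesenchyme each gene passed in both arms, by +1.95 to +3.98 (10.7% and 6.98% of genes passed), but the class is defined by cartilage transcripts.

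Melanocyte-gated cells numbered 14 and 13 in the limbs and held 140 and 352 CPM of *Sox5* and 394 and 426 CPM of *Sox6*, but 26.3 and 20.3 CPM of *Sox9*. They were too few to test, as were the osteoblast-gated cells, of which no library held more than 13 and which held 471, 290 and 184 CPM of *Sox6* in the penis and 590 and 357 CPM in the limbs. Both melanocyte values of *Sox6* lie above those of every limb type outside the cartilage classes that had at least 20 cells, and between those of the osteoblast gate.

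Whether a cell carried 1, 2 or all 3 genes was compared at 2000 UMIs per cell, with the exact expected share after thinning. In limb cartilage cells with all 3 genes made up 48.5% and 57.9% of the cells with at least 1. In the low cartilage class they were 14.8 to 18.2% in the penis and 30.6 to 33.7% in the limbs, and in tendon 11.9 to 12.5% and 4.21 to 5.53%. In mesenchyme they were 2.1 to 2.8% and 3.37 to 3.75%, and in limb muscle fibre cells 0.61 to 0.70%. Such shares fall with the level of each gene as well as with any link between them.

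In the types that follow, cells with a UMI of only 1 of the genes were the larger class at this depth. A gene counted as missing may still be expressed. In penis Schwann cells *Sox6* was seen in 22.2% at 2000 UMIs and in 49.5% without thinning, and *Sox5* in 38.0% and 70.5%. Of limb Schwann cells 80.9% and 81.0% had at least 1 of the 3 genes and 57.7 to 59.0% had *Sox5* alone. In the penis 47.4 to 54.7% had at least 1, 24.7 to 26.2% *Sox5* alone and 9.59 to 12.01% *Sox6* alone. *Sox6* alone was seen in 30.1 to 32.0% of muscle fibre cells, which is 83.1 to 83.8% of those with any. In epithelium *Sox6* alone was seen in 23.9 to 31.3% of penis and 18.6 to 19.9% of limb cells. *Sox5* alone was seen in 26.8 to 34.6% of penis and 21.8 to 27.1% of limb mural cells, and *Sox9* alone in 10.1 to 10.4% of penis and 6.34 to 8.06% of limb mesenchyme cells.

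**Figure D5:**
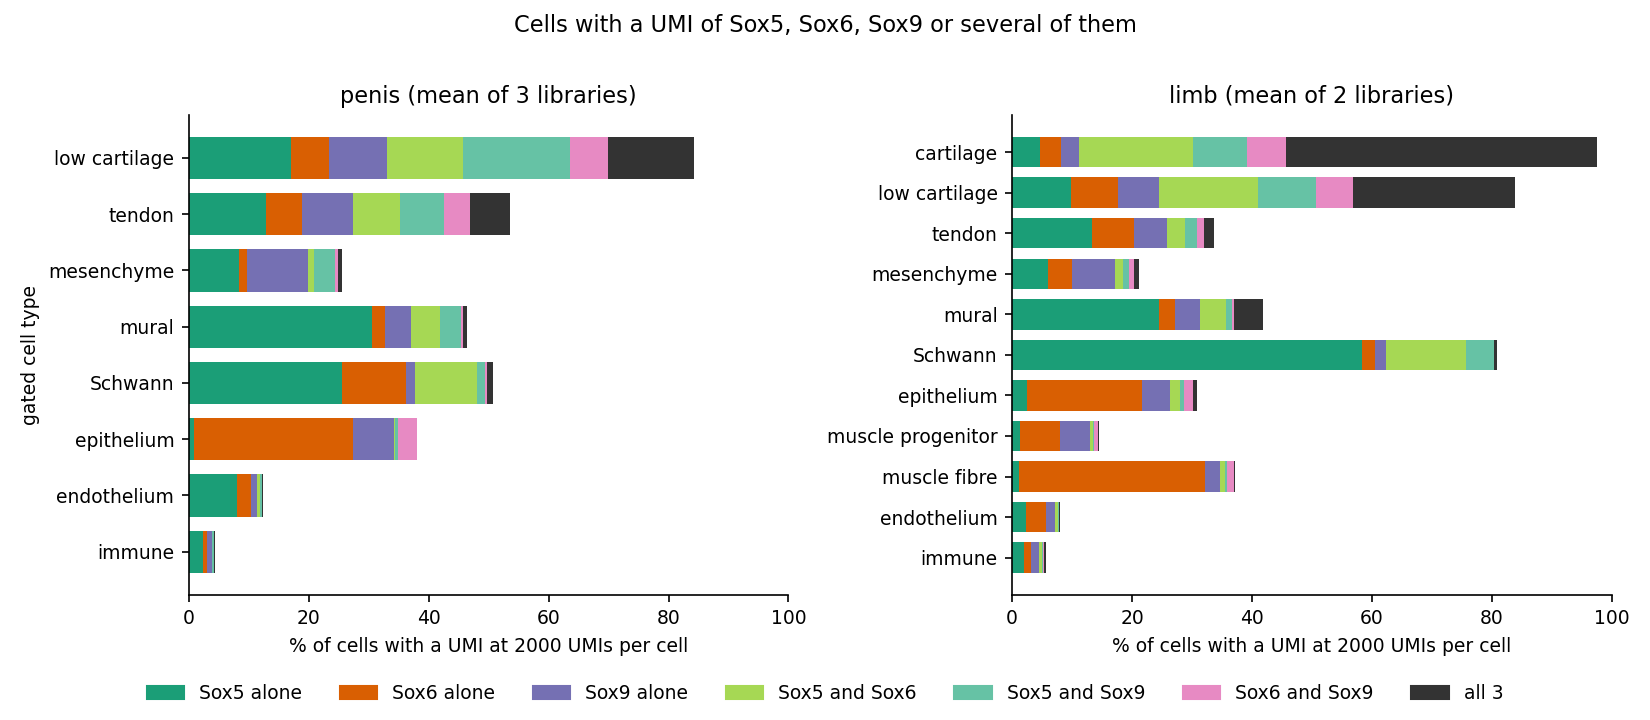
Percent of cells of a gate with a UMI of 1, 2 or all 3 of the genes at 2000 UMIs per cell, stacked by class, as the mean of 3 penis libraries and the mean of 2 limb libraries. All 3 genes were seen in 51.9% of limb cartilage-gated cells, 14.3% of penis and 26.9% of limb low cartilage cells, 6.58% of penis and 1.67% of limb tendon-gated cells, and under 1% of Schwann-gated cells.

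Cells with all 3 genes made up 6.58 ± 0.39% (SD, n = 3) of penis and 1.67 ± 0.57% (SD, n = 2) of limb tendon-gated cells. Without cells with 3 cartilage markers the penis values were 0.82%, 1.39% and 2.32% and the limb values 0.42% and 0.26%. *Sox5* was seen in 38.0 ± 2.16% of penis and 76.9 ± 0.44% of limb Schwann cells, and *Sox6* in 3.51 ± 0.38% of penis and 6.79 ± 0.73% of limb mesenchyme cells (SD, n = 3 and 2). Over 56 such comparisons of 1, 2 or all 3 genes in 8 types, the penis and limb libraries did not overlap in 37; among the 24 comparisons of 1 gene they did not overlap in 17. Over all genes the share of non-overlapping single genes at this depth was 59.2% in Schwann, 61.7% in endothelium, 51.7% in epithelium, 66.9% in immune, 61.0% in low cartilage, 79.2% in mesenchyme, 51.3% in mural and 63.3% in tendon cells. With 10 ways to split 5 libraries the exact 2-sided permutation test cannot give a p below 0.1, and no comparison had an adjusted p below 0.2.

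Set against the product of the single shares, which is what independent genes would give in cells of equal depth, pairs were seen together 1.02 to 1.04 times as often in limb cartilage. In mesenchyme *Sox5* with *Sox6* was seen 3.48 to 3.74 times as often in the penis and 3.12 to 3.47 times in the limbs, and *Sox5* with *Sox9* 2.04 to 2.05 and 1.90 to 2.26 times. All 3 genes were seen together in 8.58 to 10.3 times as many penis mesenchyme cells as the product, and in 2.60 to 3.04 times as many penis tendon cells. In Schwann cells *Sox5* with *Sox6* was seen 1.25 to 1.38 times as often as the product in the penis and 1.10 to 1.13 times in the limbs. Epithelium was close to the product for *Sox6* with *Sox9*, at 0.93 to 1.12 and 1.06 to 1.41, and so were muscle fibre cells, at 0.97 to 1.15. These ratios describe the cells of these libraries, are large where a gate mixes cells with and without the genes, and were not tested. The ratio of a pair cannot exceed the inverse of the larger single share, so it has little room where a gene is common. *Sox5* was seen in 83.5% and 85.8% of limb cartilage and 76.6 to 77.2% of limb Schwann cells. In limb mesenchyme it was seen in 9.13 to 9.18% of cells. Ratios of different gates are therefore not on the same scale.

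Across the 44 sums of a library and gate outside the cartilage gate, the 3 genes did not share their nearest neighbours. Pearson's r of the log2 levels was 0.44 between *Sox5* and *Sox6*, 0.59 between *Sox5* and *Sox9* and 0.71 between *Sox6* and *Sox9*. Without the low cartilage class, in 39 sums, these fell to 0.25, 0.41 and 0.58. The 5 genes most like *Sox5* were *Rims1* (0.86), *Loxl3* (0.86), *Pmepa1* (0.85), *Chsy3* (0.84) and *Sgcd* (0.84). Those most like *Sox6* were *Lrig3* (0.79), *Fat1* (0.77), *Map2* (0.76), *Mtfr1* (0.76) and *Pebp1* (0.76), and those most like *Sox9* were *Scube3* (0.89), *Boc* (0.89), *Mpped2* (0.89), *Sdk2* (0.88) and *Neo1* (0.87). Without the low cartilage class 3 of these 5 genes were again among the 5 nearest to *Sox5*, but 1 of 5 for *Sox6* (*Pebp1*) and 1 of 5 for *Sox9* (*Neo1*). Most genes named for the latter pair were thus replaced, and how far their own r changed was not examined. Sums of 1 library share its preparation and depth, so these values are a description with no p-value.

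Of the 11 genes listed as partners of the 3 proteins, 10 were tested, and 0 to 2 passed in each comparison or interaction, with list medians from -0.39 to +0.27; over all genes 2.24 to 41.5% passed, depending on the comparison. In limb cartilage none passed and the median was 0.08. *Arid5a*, a partner of SOX9 on cartilage enhancers, averaged 25.1 CPM in penis and 11.9 CPM in limb Schwann cells and 47.3 and 26.7 CPM in mural cells.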

How the data were processed

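Single-cell suspensions of 5 libraries were sequenced with the 10X Genomics 3' kit. The authors deposited raw UMI counts per gene and called barcode, made with Cell Ranger 7.0.0 against mm10 per the labels; whether introns were counted is not given in the sources used here. The study's limits on reads per cell were read as genes detected (penis 500 to 6000, forelimb 100 to 9000, hindlimb 100 to 9500), with mitochondrial shares up to 5%, 10% and 10% and log10 genes per log10 UMI of at least 0.8.

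Kept cells were gated by 13 lists of 135 marker genes. A cell needed 3 markers (2 for tendon, melanocyte and muscle progenitor) and a summed share per 10000 UMIs of at least 50 for cartilage, 20 for osteoblast, mesenchyme and muscle fibre, 15 for epithelium, endothelium and immune, 10 for mural, 8 for tendon and Schwann, 5 for melanocyte and muscle progenitor and 500 for red blood. The low cartilage class had a share of 10 to 50, 3 markers and no gate other than mesenchyme. Its cells were not counted as mesenchyme, whether or not they passed that list. These limits, and that class, were set after the distributions of marker shares were seen. The 3 members and the gene lists were chosen with earlier results of these data known. No doublet caller was run; 60 to 362 cells per library that passed several gates were left out. The red blood gate was not tested.

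The library was the unit of replication. For each library the UMIs of the cells of a gate were added up, for gates with at least 20 cells in each library, and tested with edgeR 4.0.16 (limma 3.58.1, R 4.3.3): TMM scaling, filterByExpr and the quasi-likelihood test, with p-values adjusted by Benjamini-Hochberg across every gene that entered the fit. Penis was compared with limb gate by gate. Types were compared with mesenchyme, and the interactions tested, in 1 fit of 46 sums with library as a block and 24 residual degrees of freedom, over 17386 genes. A gene passed at an adjusted p under 0.01 with an absolute log2 difference over 1. Each SE is the absolute log2 difference over the square root of F. In the comparisons with mesenchyme the median log2 difference of all genes lay between -0.213 and -0.0133. DESeq2 1.42.0 was an alternative. The tests were checked on simulated counts. Detection shares are exact expectations after thinning each cell to 2000 UMIs, computed with numpy 2.4.6, pandas 2.3.3 and scipy 1.17.1 in Python 3.11.15; shallower cells were left out. Intervals are 95% Poisson intervals and cover counting error only.

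Named beside the members were the 5 genes most like each in Pearson's r of log2(CPM + 1) over sums outside the cartilage gate (at least 20 CPM in one, gate markers left out), and the 10 genes per arm that best set apart mesenchyme cells with a *Sox9* UMI. Lists are given by counts and medians. Between 255 and 370 UMIs per library were assigned to the antisense gene Sox5os4 and 20 to 47 to Sox6os; reads of overlapping genes may be split between them.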

Additional observations from a re-analysis of the deposited data

Results flagged for a closer look

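For 9 of 21 interactions the difference between a cell type and mesenchyme was not the same in the penis and the limbs, by a test of the difference itself in edgeR's quasi-likelihood fit. In Schwann-gated cells this held for all 3 genes. The interaction (penis minus limb, log2 scale) was -1.63 ± 0.20 for *Sox5*, +1.71 ± 0.25 for *Sox6* and -1.41 ± 0.30 for *Sox9*, where 9.62% of all genes passed.

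In tendon-gated cells it was +2.40 ± 0.22 for *Sox6* and +1.05 ± 0.18 for *Sox9*, where 4.15% of genes passed. Without the forelimb the *Sox9* value was +0.94, under the limit of 1. Without cells with 3 cartilage markers the *Sox6* value was +1.68 and passed, and the *Sox9* value was +0.43 and did not.

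In epithelium-gated cells it was -2.10 ± 0.35 for *Sox5* and +1.37 ± 0.22 for *Sox6*, where 9.38% of genes passed. Both passed with each library left out in turn, and the *Sox5* value was -1.42 without the forelimb. In endothelium-gated cells it was +1.30 ± 0.26 for *Sox5*, where 8.73% passed. In immune-gated cells it was -1.33 ± 0.29 for *Sox9*, where 13.2% passed. The last did not pass without the first penis library (-1.04) or without cells with 3 cartilage markers (-0.92), and *Sox9* in immune cells was low, at 6.43 to 16.6 CPM.

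Each interaction holds the difference of mesenchyme between the arms as well. *Sox6* in mesenchyme was lower in the penis than in the limbs (-1.29 ± 0.08), and in epithelium its level differed by +0.09 ± 0.15 between penis and limb, which did not pass.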

How the results depend on the processing

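The number of penis and limb differences that passed, 8 of 24, fell to 5 in an alternative added after seeing the data. It left out cells with at least 3 cartilage markers or a cartilage share of at least 10 per 10000 UMIs, and was not matched for depth. *Sox6* in mural cells then reversed, from -1.20 to 0.067. Leaving out each library in turn gave 7 to 8 such differences, 35 to 37 of those with mesenchyme (36 with all libraries), 8 to 10 interactions (9) and 39 to 46 non-overlapping shares (37). Ranges that do not overlap stay apart when a library is left out, so the last count could not fall. *Sox9* in mesenchyme fell from 102 to 58.8 CPM in the penis and from 60.4 to 46.7 CPM in the limbs when only cells without a cartilage-marker UMI were counted. Those cells were not matched for depth between the arms. Over all alternatives, the single tests kept the side of the limits in 1261 cases, in which the direction was kept or turned by less than 1 SE without a call. They lost a call in 46 and gained one in 36, with the direction kept. In 27 the direction turned by at least 1 SE with no call in either fit, and in 1 it turned where a call was involved.

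Shares depended on depth. Penis minus limb, in percentage points, *Sox5* with *Sox9* in the low cartilage class was -4.69 at 2000 UMIs per cell, 3.23 at 4000 and 22.05 without thinning. All 3 genes in mesenchyme gave -0.10, 0.65 and 1.68. Without thinning *Sox5* with *Sox6* turned from -16.4 to 8.69, *Sox6* with *Sox9* from -12.5 to 11.04 and all 3 from -12.7 to 15.1 in the low cartilage class, and *Sox5* with *Sox6* from -0.35 to 1.09 in mesenchyme. Penis cells were the deeper, so shares were compared between arms after thinning. No paired analysis was possible because the forelimb and hindlimb have 1 library each and share only the number 1 with a penis library. The SE of the penis and limb differences, which depth and spread between libraries set, ran from 0.07 for *Sox5* in mesenchyme to 0.34 for *Sox5* in epithelium.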
